A study of Mus musculus with 2 samples.

Results

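The microRNA genes described here are the 9 that lie in Meg3 and between Meg3 and Rtl1 on mouse chromosome 12: Mir770, Mir673, Mir493, Mir337, Mir3544, Mir540, Mir665, Mir3070a and Mir3070b. They were chosen by gene symbol and position, from 109563692 to 109588680 of the mm10 assembly, and 2193 other annotated microRNA genes were counted with them. All 9 had at least 1 read in each library. Small RNA shorter than 30 nt was sequenced from gastrocnemius, a calf muscle, of 14-day-old female mice of the hybrid strain B6CASTF1/J. There were 2 biological replicates in 1 group, and the labels name no treatment, genetic modification or second tissue. The biosample of replicate 2 is named for a female and that of replicate 1 for 3 females, and both carry the same donor identifier. Nothing states whether their RNA was pooled, so the spread between the replicates may be partly technical.

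The Dlk1-Meg3 domain is imprinted, which means that each of its genes is expressed mainly from the chromosome of 1 parent. The maternal chromosome expresses the long noncoding RNA Meg3 and, farther downstream, a long series of microRNAs on the same strand, while the paternal chromosome expresses the protein-coding genes Dlk1, Rtl1 and Dio3. A microRNA is cut from a hairpin, and either arm can be kept as the mature strand that guides the silencing of messenger RNAs through its seed, bases 2 to 8. In skeletal muscle the microRNAs of this domain are known from studies of regeneration, where the transcription factor MEF2A activates them. The counts do not separate the parental alleles.

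The mature strands show what the counts add up, since a gene was counted as 1 unit, 5p and 3p arm together. RefSeq (GRCm38.p6, the same assembly as mm10) held all 9 hairpins and 18 mature strands, and the hairpin sequences and positions matched the GENCODE M21 annotation of the counts. The 14 mature strands of the 7 genes that averaged at least 10 CPM (reads per 1000000 reads assigned to microRNA genes) are given 5′ to 3′ with the seed in capitals.
miR-337-5p: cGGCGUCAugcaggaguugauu
miR-337-3p: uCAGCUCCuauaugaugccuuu
miR-3544-5p: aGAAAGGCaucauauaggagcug
miR-3544-3p: aCUCCUGCaugacgccguuccc
miR-540-5p: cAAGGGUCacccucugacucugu
miR-540-3p: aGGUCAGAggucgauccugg
miR-493-5p: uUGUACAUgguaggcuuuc
miR-493-3p: uGAAGGUCcuacugugugccagg
miR-673-5p: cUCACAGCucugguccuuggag
miR-673-3p: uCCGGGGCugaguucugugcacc
miR-665-5p: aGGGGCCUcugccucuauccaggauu
miR-665-3p: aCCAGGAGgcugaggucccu
miR-770-5p: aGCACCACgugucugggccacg
miR-770-3p: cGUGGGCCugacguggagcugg
The 18 strands carried 16 distinct seeds. Within the group, seeds recurred solely between Mir3070a and Mir3070b. Outside it, miR-540-3p shared its seed GGUCAGA with miR-6915-5p of Mir6915, and miR-673-5p shared UCACAGC with miR-6985-3p of Mir6985. Those genes averaged 0.653 and 0.116 CPM.

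The 9 genes occupied 25.0 kb, or 13.6% of the 184 kb from Mir770 to Mir3072 that holds the cluster of 65 annotated microRNA genes. Mir770 lies inside Meg3, at chromosome 12, 109563692 to 109563785, within the fifth and last exon of 1 Meg3 transcript and within introns of the other 3 Meg3 transcripts that span it. Mir673 starts 264 bp past the annotated end of Meg3 (109571990 to 109572080) and Mir493 8507 bp past it (109580233 to 109580315). Mir337 (109585789 to 109585885), Mir540 (109586080 to 109586146) and Mir665 (109586314 to 109586407) stand within 619 bp of one another. Mir3070a (109587943 to 109588031) and Mir3070b (109588592 to 109588680) come last, and Mir3070b ends 513 bp before the annotated 3′ end of Rtl1. Mir3544 (109585813 to 109585873) lies on the minus strand, inside Mir337. No exon or intron of another annotated gene covers the 8 genes outside Meg3.

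Libraries held 12134412 reads in replicate 2 and 8002643 in replicate 1, of which 4292012 and 2672454 were assigned to a microRNA gene on its own strand. A single read was therefore worth 0.233 CPM in replicate 2 and 0.374 CPM in replicate 1. Reads with several alignments, 52.4% of replicate 2 and 52.7% of replicate 1, entered no gene's count. The tissue label was checked against fixed muscle markers, and all 6 had at least 1 CPM in both libraries. Mir206 stood at 84695 CPM in replicate 2 and 95105 CPM in replicate 1. The other muscle markers were far lower, from Mir133b, at 31.0 CPM (replicate 2) and 25.4 CPM (replicate 1), to Mir486, at 538 and 643 CPM. Genes listed as markers of other cells had reads too. Their summed levels in replicate 2 and replicate 1 were 119268 and 118724 CPM for the endothelial gene Mir126a, 25379 and 24273 CPM for 4 fibroblast and smooth muscle genes (Mir199a-1 at 0), and 853 and 1185 CPM for 4 leukocyte genes. They were 1436 and 1554 CPM for 8 neural genes (the 3 Mir124a genes, Mir9-1 and Mir9-2 at 0), 185 and 437 CPM for 2 erythroid genes, and 14.2 and 229 CPM for the hepatocyte gene Mir122. Mir128-1 alone supplied 1345 and 1503 CPM of the neural sums, so these do not show that neural cells were present. Since reads with several alignments were not counted, a 0 for a marker is not evidence of its absence. For the same reason a low level, as for Mir133b, is not evidence that the microRNA was scarce.

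Together the 9 genes held 58258 assigned reads in replicate 2 and 31962 in replicate 1. That was 1.36% of the library (exact 95% binomial interval 1.35 to 1.37) and 1.20% (1.18 to 1.21), a mean of 1.28% ± 0.114 (SD, n = 2). The intervals cover counting error alone. No molecular identifiers are named, so the reads counted may not all be separate molecules. At a threshold of 1 CPM in both replicates, 8 of the 9 were expressed, and Mir3070a missed it in replicate 2. Over all annotated microRNA genes, these 9 included, the same threshold was passed by 16.7%. A mean of 10 CPM was reached by 7 of the 9, against 11.8% of all genes. These high shares were not particular to the 9. Of the 56 other genes of the cluster, 46 passed the threshold of 1 CPM and 41 the mean of 10 CPM.

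**Figure D1:**
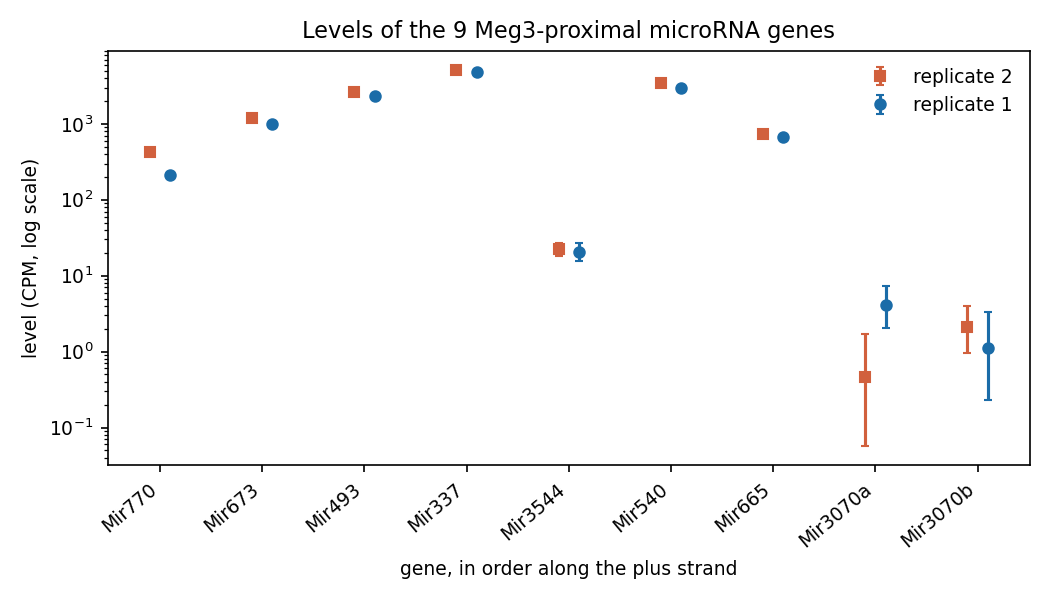
Level of each gene in CPM on a log axis, in order along the plus strand, with squares for replicate 2, circles for replicate 1 and bars for exact 95% binomial intervals. Levels climb from Mir770 to Mir337 and are far lower for Mir3544, Mir3070a and Mir3070b.

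Mir337 was the most abundant gene of the group. It had 21923 reads, or 5108 CPM, in replicate 2 and 12844 reads, or 4806 CPM, in replicate 1. It ranked 35th of all genes, and supplied 37.6% of the group's reads in replicate 2 and 40.2% in replicate 1. Its neighbour Mir540 followed with 3471 CPM (replicate 2) and 2934 CPM (replicate 1). Mir665, next to both, had 732 CPM and 669 CPM in the same order. These 3 neighbours made up 68.6% of the group's reads in replicate 2 and 70.3% in replicate 1.

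The genes nearer to Meg3 had lower levels than Mir337. Mir493, whose human counterpart has been studied as a suppressor of metastasis, reached 2634 CPM (replicate 2) and 2315 CPM (replicate 1). Mir673 had 1184 CPM and 998 CPM. Mir770, the gene inside Meg3, had 420 CPM and 211 CPM. Along the plus strand the level thus climbed gene by gene in both libraries, with means of 316 ± 148 CPM for Mir770, 1091 ± 131 CPM for Mir673, 2475 ± 225 CPM for Mir493 and 4957 ± 213 CPM for Mir337 (SD, n = 2). Past Mir337 the plus-strand genes were lower, at 3203 ± 380 CPM for Mir540, 700.2 ± 44.7 CPM for Mir665, 2.29 ± 2.58 CPM for Mir3070a and 1.61 ± 0.689 CPM for Mir3070b.

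The order of levels was the same in both libraries for the 7 genes above 10 CPM. Each step of that order, from Mir337 through Mir540, Mir493, Mir673, Mir665 and Mir770 to Mir3544, exceeded counting error in either library. The narrowest step was Mir540 over Mir493, at 1.32-fold (95% counting interval 1.29 to 1.35) in replicate 2 and 1.27-fold (1.23 to 1.31) in replicate 1. The difference of these means was 1.20 times the sum of the SDs. From Mir665 down to Mir770 the step was 1.74-fold (1.64 to 1.85) in replicate 2 and 3.16-fold (2.88 to 3.48) in replicate 1. Mir3070a and Mir3070b could not be ordered, since their difference was 0.208 times the sum of their SDs and went opposite ways in the libraries.

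Hairpin and mature sequences of these genes were mostly their own. The longest stretch that Mir770, Mir673, Mir493, Mir337, Mir3544, Mir540 or Mir665 shared with any other annotated microRNA hairpin, on either strand, was 14 nt. For Mir3070a and Mir3070b it was 43 nt, shared with each other. No mature strand of the 6 abundant plus-strand genes occurred on the same strand of another annotated transcript, except that both Mir770 strands lie in Meg3 itself. The genome sequence outside annotated transcripts was not searched. The hairpins ranged from 61 nt (Mir3544) to 97 nt (Mir337). Their GC content ranged from 50.8% for Mir3544 to 70.2% for Mir770, with a median of 55.1%, against a median of 45.7% over the other 56 cluster genes and 50.8% over all genes. The predicted minimum folding energy ranged from -0.62 kcal/mol per nt for Mir770 to -0.37 for Mir3070a, with a median of -0.47, against -0.41 over the other cluster genes.

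Mir337 and Mir3544 are read from opposite strands of the same DNA, so their hairpins are shown next to each other, with the mature strands in capitals.
Mir337: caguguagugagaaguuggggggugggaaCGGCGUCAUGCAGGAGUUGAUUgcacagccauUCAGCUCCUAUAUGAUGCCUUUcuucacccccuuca
Mir3544: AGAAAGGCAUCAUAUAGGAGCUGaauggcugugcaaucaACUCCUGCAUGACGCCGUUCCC
The whole 61 bp of Mir3544 overlaps Mir337. On the DNA, miR-337-3p and miR-3544-5p overlap over 21 nt and miR-337-5p and miR-3544-3p over 17 nt. The longest stretch common to the Mir337 hairpin and its own reverse complement was 7 nt, so the strand of a read of mature length can be read from its sequence.

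Nearly all reads of this locus came from the Mir337 strand. Mir3544 had 95 reads in replicate 2 and 55 in replicate 1, or 22.1 CPM (95% interval 17.9 to 27.1) and 20.6 CPM (15.5 to 26.8). That was 0.431% of the pair's reads in replicate 2 (0.349 to 0.527) and 0.426% in replicate 1 (0.321 to 0.555). The minor strand's share thus differed between the libraries by less than counting error, and Mir337 had 231 and 234 times the reads of Mir3544. In the counts opposite to Mir337, 1 read of replicate 2 and 0 of replicate 1 lay outside Mir3544. The other 7 members had 0 opposite-strand reads in both libraries, which for each gene allows up to 0.699 CPM in replicate 2 and 1.12 CPM in replicate 1.

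Opposite-strand reads elsewhere give the level that a library shows without a second gene. Over the 2138 microRNA genes that have no microRNA gene on their other strand, 36 of the reads in replicate 2 and 35 in replicate 1 were on the opposite strand. These were 0.00112% (0.000781 to 0.00154) and 0.00178% (0.00124 to 0.00248) of reads on both strands. The share at the Mir337 locus was 387 times that in replicate 2 and 239 times that in replicate 1. Of 32 annotated pairs on opposite strands, 13 had at least 1000 reads on the more abundant gene in each library. The median minor share over the 13 was 0%. The sole pair of the 13 above Mir337 was Mir486 with Mir3107, at 2.70% in replicate 2 and 1.77% in replicate 1. Whether reads of Mir486, or of any pair but that of Mir337, fit both strands was not checked. Among pairs with fewer reads, Mir136 with Mir3071, of the same cluster, had 1.40% (0.643 to 2.64) in replicate 2 and 1.61% (0.696 to 3.14) in replicate 1. Mir24-1 with Mir3074-1 had 17.4% and 19.0%. These rest on 35 reads of Mir3074-1 and 166 of Mir24-1 in replicate 2, and 23 and 98 in replicate 1. Most other such pairs with reads stood at 0. Among the counted reads, a larger minor share than at Mir337 was therefore not confined to 1 pair. Reads with several alignments, which entered no count, could change these shares. When strand was ignored, the deposited counts gave Mir337 1 read in replicate 2 and 0 in replicate 1 and gave Mir3544 none, so the most abundant gene of the group is lost in that column.

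**Figure D2:**
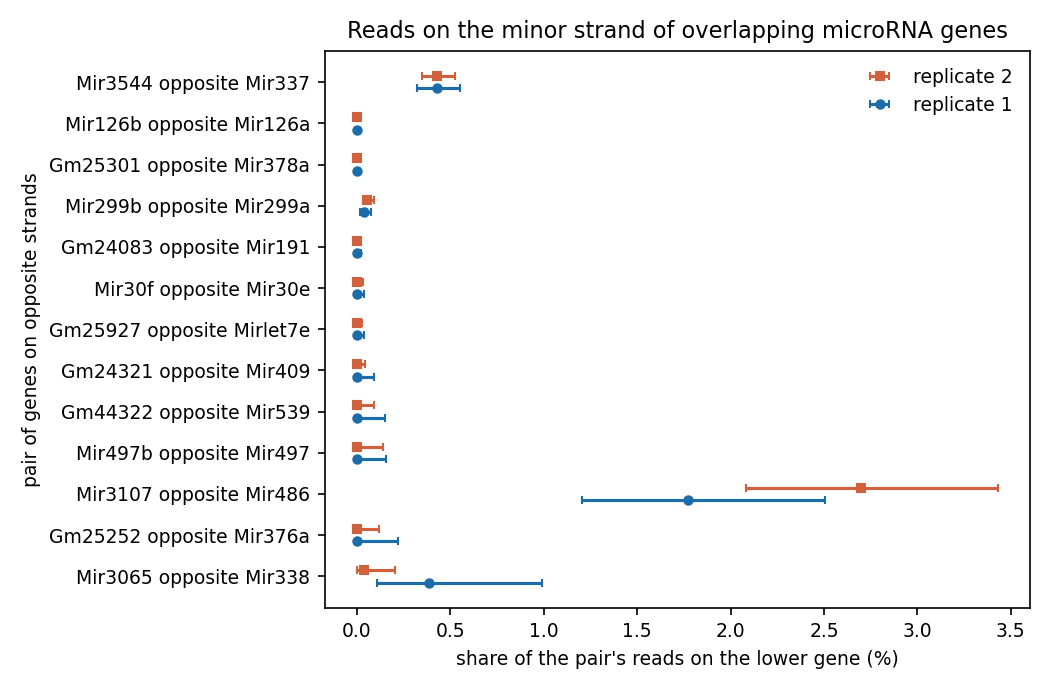
Share of a pair's reads that fell on its lower gene, in percent, for 13 pairs of microRNA genes on opposite strands with 1000 reads or more on the higher gene, with squares for replicate 2, circles for replicate 1 and bars for exact 95% binomial intervals. Mir3544 opposite Mir337 stands at 0.431% and 0.426%, and most pairs stand at 0.

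Mir3070a and Mir3070b are near copies, and their hairpins are shown with the differing bases in capitals.
Mir3070a: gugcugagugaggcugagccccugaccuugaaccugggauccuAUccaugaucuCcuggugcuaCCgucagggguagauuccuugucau
Mir3070b: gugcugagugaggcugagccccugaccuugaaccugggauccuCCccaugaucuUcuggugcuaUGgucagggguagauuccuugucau
They differ at 5 of 89 positions, counted from 1 at the 5′ end and written with the Mir3070a base first: A44C, U45C, C55U, C65U and C66G. The mature 5p strand is identical in both, and C65U and C66G alone lie in a mature strand, the 3p strand. Reads that fit both genes equally well are not counted for either, so both counts are lower bounds. Mir3070a had 2 reads in replicate 2 and 11 in replicate 1. Mir3070b had 9 reads in replicate 2 and 3 in replicate 1. Mir3070a was thus 8.83-fold higher in replicate 1 in CPM, with a wide 95% counting interval of 1.93 to 82.0, and the ratio of Mir3070b, 1.87 in favour of replicate 2, had an interval of 0.466 to 10.7. Summed, the pair had 11 reads in replicate 2 and 14 in replicate 1, or 2.56 CPM and 5.24 CPM, 0.489 times as much in replicate 2 (95% counting interval 0.201 to 1.16). At this depth no difference between the libraries in the summed pair was detectable.

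Within the cluster the group was a small share, and nearly the same in both libraries. It held 6.11% of the cluster's reads in replicate 2 and 6.16% in replicate 1, a mean of 6.14% ± 0.0374 (SD, n = 2), from 9 of the 65 genes. The 7 Rtl1-antisense genes, which begin with Mir431 downstream of Mir3070b and include microRNAs complementary to the Rtl1 transcript, held 42.7% in replicate 2 and 42.9% in replicate 1. Mir3071, counted in this set, lies on the minus strand as Rtl1 does and so is not antisense to it. The 49 genes farther downstream held 51.2% and 50.9%. Per read of the group, the Rtl1-antisense genes had 6.98 reads in replicate 2 and 6.96 in replicate 1. Mir127 by itself stood at 66856 ± 5476 CPM, 5.24 times the summed mean of the 9 genes. With 1 group and 2 samples, none of these differences between sets of genes was tested.

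By median, the members stood between the neighbouring sets. The 7 members above a mean of 10 CPM had a median of 1091 CPM, against 7971 CPM for 5 of the Rtl1-antisense genes and 605 CPM for 36 of those farther downstream. The medians of all members, including those below that level, were 700.2 CPM over 9 genes, 2628 CPM over 7 Rtl1-antisense genes and 277 CPM over 49 farther downstream. No member reached the level of Mir411, the most abundant gene farther downstream, at 33509 ± 6483 CPM. By mean level among the 65 cluster genes Mir337 ranked 10th, Mir540 12th, Mir493 14th, Mir673 19th, Mir665 25th and Mir770 32nd, while Mir3544 ranked 47th, Mir3070a 53rd and Mir3070b 55th.

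**Figure D3:**
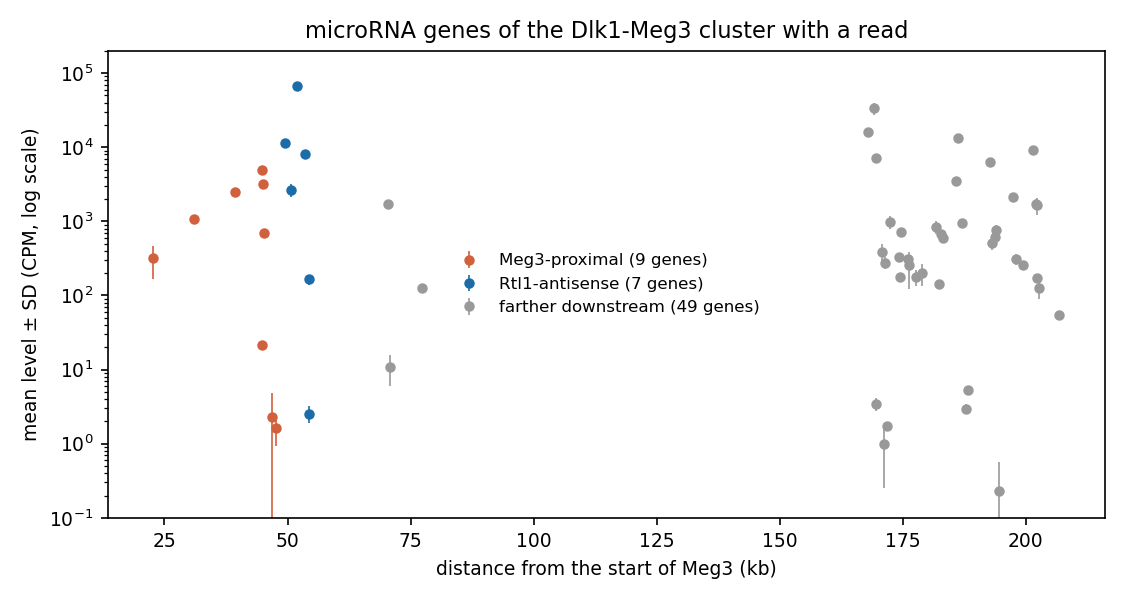
Mean level ± SD (n = 2) in CPM, on a log axis, of each microRNA gene of the cluster that had a read, by its distance in kb from the start of Meg3. The 9 Meg3-proximal genes lie at 22.7 to 47.6 kb and reach 4957 CPM, and the Rtl1-antisense genes next to them reach 66856 CPM.

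Genes elsewhere with the most similar levels were sought by the summed absolute difference in log2(CPM + 1) over the 2 libraries. For Mir337 the nearest were Mir196b (0.26), a Hox cluster gene at 5535 CPM (replicate 2) and 5304 CPM (replicate 1), then Mir21a (0.27) and Mir100 (0.37). For Mir540 they were Mir381 (0.31), of the same cluster, with 3713 CPM and 3390 CPM, then Mir98 (0.32) and Mir351 (0.35). With 2 libraries this likeness is in effect one of level.

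The libraries differed slightly in most members. Called by a 95% counting interval of the ratio above 1, 6 of the 7 members above the 10 CPM mark were higher in replicate 2 and 0 were lower, with no p-value since there is 1 library on each side. The background was 33.1% of 260 genes higher and 25.8% lower. As log2 of replicate 2 over replicate 1, the median was 0.19 over the 7 members, 0.17 over 41 other cluster genes and 0.04 over all 260 genes. Of those 41 cluster genes, 25 were higher and 5 lower. The ratio of summed reads was 1.13 for the members (1.12 to 1.15) and 1.15 for the other cluster genes (1.14 to 1.15).

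Most members differed about as much as the rest of the cluster did. Mir673 was 1.19-fold higher in replicate 2 (1.13 to 1.24), Mir540 1.18-fold (1.15 to 1.22) and Mir493 1.14-fold (1.10 to 1.17). Mir665 was 1.09-fold higher (1.03 to 1.16), Mir337 1.06-fold (1.04 to 1.09), and Mir3544 had a ratio of 1.08 (0.764 to 1.53). Relative to the summed reads of the other cluster genes, Mir337 was lower in replicate 2, with a log2 ratio of -0.11, and Mir540 was higher, with 0.05. On that scale the intervals of Mir493, Mir665, Mir673 and Mir3544 included no change, and 3 of the 7 members, counting Mir770, had a positive ratio.

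Mir770 stood apart from its neighbours. It had 1804 reads in replicate 2 and 565 in replicate 1, a ratio of 1.99 in CPM (95% counting interval 1.81 to 2.19), and 1.74 (1.58 to 1.91) relative to the other cluster genes. Among the 7 members above the 10 CPM mark it was the sole gene more than 1.5-fold higher in replicate 2, a size that 8.46% of the 260 genes passed and 5 of the 41 other cluster genes. Its share of the group's reads was 3.10% in replicate 2 and 1.77% in replicate 1, and its reads per 100 reads of Mir337 were 8.23 and 4.40. The other 5 plus-strand members above that mark lay between 0.09 and 0.25 in log2 ratio, where Mir770 had 0.99, while Mir3070a and Mir3070b, below it, had -3.14 and 0.90 from at most 11 reads. Higher ratios than that of Mir770 were found in 6 of the 260 genes, 1 of them in the cluster. Between the same libraries, erythroid markers were 2.36-fold, leukocyte markers 1.39-fold and the hepatocyte gene Mir122 16.1-fold higher in replicate 1, and the part of such differences in the ratio of Mir770 was not tested. Mir770 lies in Meg3, where a fragment of the Meg3 transcript that covers the hairpin would be counted with the microRNA, and the counts do not tell these apart.

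**Figure D4:**
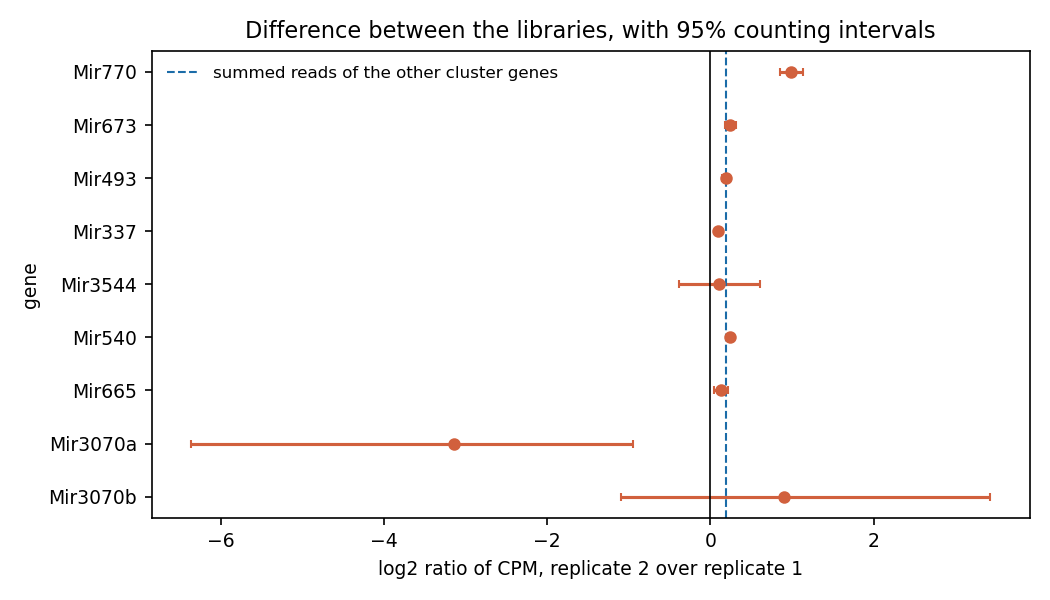
Log2 ratio of CPM, replicate 2 over replicate 1, for each gene with its 95% counting interval, and a dashed line at the ratio of the summed reads of the other cluster genes (1.15-fold). Mir770 lies at 0.99, well right of the line, 5 other genes with narrow intervals lie near it, and Mir3544, Mir3070a and Mir3070b have wide intervals.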

How the data were processed

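Small RNA libraries of 2 samples were analysed. The authors deposited raw read counts per microRNA gene in 3 columns, taken from their order as unstranded, same-strand and opposite-strand counts. The assembly is mm10 and the annotation GENCODE M21, and the software that aligned and counted is not given in the sources used here. Same-strand counts were divided by their total over gene rows to give CPM. The 4 summary lines (64.6% of reads in replicate 2, 66.6% in replicate 1) stayed out of totals.

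Binomial intervals are exact (Clopper-Pearson, 95%). Ratios between libraries have intervals from the exact binomial of their reads, checked on data drawn with known ratios, and cover counting error only. For CPM limits, a count of 0 was taken to allow up to 3 reads, a fixed limit that is not the exact interval. Folding used RNAfold 2.7.2, and other work Python 3.11.15, scipy 1.17.1 and pandas 2.3.3. Alternatives used edgeR 4.0.16 (TMM) and DESeq2 1.42.0 (size factors) in R 4.3.3. With 1 group no test between groups was made. Members and lists were chosen with earlier results of these data known. Named genes were all members, the 3 genes closest in level to each of the 2 most abundant members, the top gene of each neighbouring set, genes sharing 18 nt or a seed with a member, and fixed markers. Opposite-strand pairs were also named where their minor share exceeded that of Mir337 in both libraries.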

Additional observations from a re-analysis of the deposited data

How the results depend on the processing

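Under TMM and DESeq2 scaling all 9 levels and all 9 ratios kept their direction and their call, and 8 members stayed expressed. The mean share of 1.28% was 0.440% of all reads in the file and 3.30% of a total without the 10 most abundant genes, by construction of these totals. It was 1.05% without regard to strand, where the reads of Mir337 and Mir3544 drop out of the group's count. The total fell there too, to 3227243 reads in replicate 2 and 1963516 in replicate 1. The CPM of the other members therefore rose, for Mir540 to a mean of 4305. The share of the cluster was 4.05% without regard to strand, where Mir337 is lost, and 9.05% without Mir127. The median log2 ratio of the members was 0.27 on the total of all reads, a scaling that moved every ratio by 0.08, and -0.0097 on the total of the other cluster genes. On the latter scale 2 members in place of 6 were higher in replicate 2, and the log2 ratios were -0.11 for Mir337, -0.0097 for Mir493 and -0.066 for Mir665, and that of Mir673 fell within counting error. These follow from the higher cluster total in replicate 2. The number expressed was 7 at 10 CPM, 8 at 0.5 CPM, 9 with any read and 6 without regard to strand. Either replicate alone gave shares of 1.20% to 1.36% and 8 to 9 expressed genes. No paired analysis was possible because there is 1 group. Depth limits Mir3070a and Mir3070b, with at most 11 reads each, and Mir3544, whose interval spanned 0.764 to 1.53. For Mir3070a and Mir3070b the loss of reads that fit both genes is a further limit, which more depth would not remove.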
